A study of Homo sapiens with 3 samples.

Results

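The chemokine receptors considered here were CCR7, CXCR5, CXCR4, CX3CR1, CCR1, CCR2, CXCR3, CCR6 and the chemokine receptor-like protein CCRL2, as measured in human macrophage-like cells. The members were named by a list of symbols, and every transcript probe carrying one of these names was read. This gave 9 of 41810 named genes and 13 of 58201 probes. The members were chosen by their measured intensities on these same arrays as well as by their family, so the differences of the members are descriptions and were not tested.

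RNA came from THP-1, a monocytic leukemia line, which the phorbol ester PMA (100 ng/ml for 24 to 36 h, then fresh medium) had turned into macrophage-like cells on all 3 arrays. The Ctrl array held untreated cells, the IMQ array held cells given imiquimod, a ligand of Toll-like receptors, and the IMQ+DMD array held cells given DMD, a benzenoid compound of the fungus *Antrodia cinnamomea*, ahead of imiquimod. The label of the last array writes X for the added agent, and X was read as DMD because no other agent is named for the series. The labels give 4 h, whereas the methods of the study describe a longer incubation for THP-1 cells in general, and no dose is given in the labels. THP-1 is a single leukemia line, and how many cultures fed an array is not stated in the sources used here. Each condition had 1 array, all 3 arrays lay on 1 slide, and differences between conditions could not be checked in replicates. Each array was read in 1 color (Cy3), and between 66.6% (IMQ) and 72.0% (Ctrl) of the probes passed the scanner's mark for a signal well above background. All 8 macrophage markers with a probe named for them (CD14, CSF1R, ITGAM, CD163, MRC1, SPI1, FCER1G and TYROBP) were well above background on every array.

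Chemokine receptors are membrane proteins that couple to inhibitory G proteins and steer leukocytes along gradients of chemokines. Monocytes leave bone marrow and enter inflamed tissue through CCR2, patrolling monocytes and many resident macrophages carry CX3CR1, and CCR1 serves several inflammatory CC chemokines. CCR7, CXCR5 and CXCR4 guide cells to lymph nodes, to B cell follicles and to niches rich in CXCL12, and CCR7 is a classical receptor of dendritic cells on their way to lymph nodes.

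Each level rests on a probe of 60 bases, and the stretches below are shown because they identify the parts of the transcripts that were read and because the paired probes of CXCR3 and of CCR2 gave different readings. Bases 31 to 60 of each probe are given 5′ to 3′, except for CXCR5, where bases 1 to 30 are given. Capitals mark the polyadenylation signal AATAAA in the CXCR5 probe and, in the CCR6 probe, bases that match the start of Alu repeats. Positions are those of the whole probe on hg19, as the array files give them. The files do not assign the positions to exons or untranslated regions.
CCR7: aaagttttcccttgaggaaacaacagcttt
CXCR4: gatttcagcacctacagtgtacagtcttgt
CXCR5: ttttctttttAATAAAaaggcacctataaa
CX3CR1: atttacttgccattactcaattgataaaca
CCR1: tctaatggctttattgcagcgattaataac
CCR2 probe 1: gtttcagtgcttcgcagatgtccttgatgc
CCR2 probe 2: tttattacagtttatctatggcacccatgc
CXCR3 probe 1: agctttgaccgctacctgaacatagttcat
CXCR3 probe 2: atatttgctcttttatttttatgtctaaaa
CCR6: ctgtcatgggctaggcatGGTGGCTCACac

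The probe of CCR7 lay at chr17:38710060-38710119 on the minus strand and that of CXCR4 at chr2:136871953-136872012 on the minus strand. CXCR5 was read at chr11:118766856-118766915 on the plus strand, and CCR6 at chr6:167552098-167552157 on the plus strand. On chromosome 3, the CX3CR1 probe lay at chr3:39305034-39305093 and the CCR1 probe at chr3:46243829-46243888, both on the minus strand. The CCR2 probes lay on the plus strand at chr3:46401916-46401975 (probe 1) and chr3:46400706-46400765 (probe 2), and each is listed for a different RefSeq transcript of the gene. The CXCR3 probes lay on the minus strand of chromosome X at chrX:70836857-70836916 (probe 1) and chrX:70835807-70835866 (probe 2), and both are listed for the same 2 RefSeq transcripts. The signal AATAAA was found in the sense direction in 7.85% of all 58201 probes and in 1 of the 13 receptor probes.

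Intensities below are the quantile-normalized values of the authors on a linear scale, and differences are given in log2 units with a technical SD. That SD is the scatter of repeated spots at the same brightness, combined over both arrays, and it covers spot noise but not the spread between cultures. Different probes bind with different strength, so levels were compared between arrays and never between genes. A gene with several probes was counted by the probe with the highest mean log2 level. A difference of at least 2-fold counted as past the threshold.

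IMQ and Ctrl macrophages differed by at least 2-fold in 6 of the 9 receptors. CCR7, CXCR4 and CXCR5 were higher with IMQ (3 genes, beside 4.19% of the 30857 genes compared), and CX3CR1, CCR1 and CCR2 were lower (3 genes, beside 3.64% of all genes), which is 7.83% of all genes in either direction. These counts follow from how the list was made and carry no weight of their own. CCRL2, CXCR3 and CCR6 stayed inside 2-fold by the probe used for counting. In RNA from a whole culture, fewer cells that express a gene and less RNA per cell cannot be told apart. The median difference of the 9 receptors was 0.20 log2 units, beside -0.02 over all genes.

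**Figure D1:**
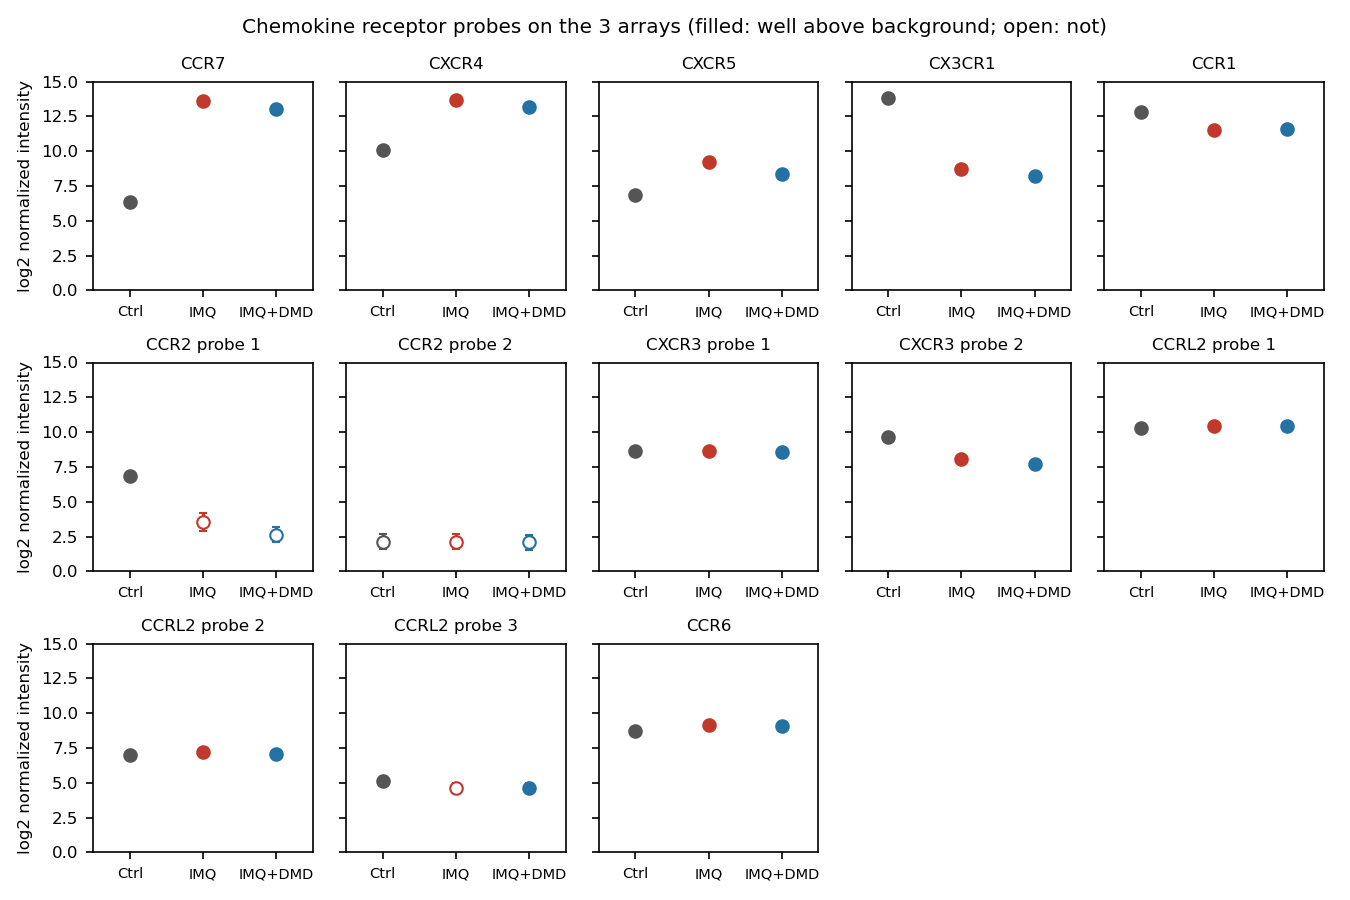
The panels plot the log2 normalized intensity (vertical axis) of each of the 13 receptor probes on the Ctrl, IMQ and IMQ+DMD arrays (1 array each); error bars are the technical SD of repeated spots, and open circles are levels not well above background. CCR7, CXCR4 and CXCR5 sit higher on the IMQ and IMQ+DMD arrays than on the Ctrl array, CX3CR1 and CCR1 sit lower, and CCR2 probe 2 is open on all 3 arrays.

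CCR7, which binds CCL19 and CCL21, had the widest contrast among the receptors. Its normalized intensity was 81.8 in Ctrl, 12682 in IMQ and 8379 in IMQ+DMD. The gene was dim in untreated cells, though well above background, and bright in both treated samples. IMQ exceeded Ctrl by 7.28 log2 units (technical SD 0.17), a 155-fold difference, and only 1 of the 30857 genes had a larger value. Genes dim on the Ctrl array entered this ranking with minimum differences, so their rises can be understated. The IMQ+DMD array lay below the IMQ array by 1.51-fold (difference -0.60, technical SD 0.06) and stayed 102-fold above Ctrl. With normexp background correction, an alternative that adds a constant to every signal, the differences from Ctrl were smaller, 6.28 log2 units for IMQ and 5.66 for IMQ+DMD. The local background of the spot was 23.0 on the Ctrl array and 27.0 on both others. The SD over its pixels was 19.7% of the mean in Ctrl, 17.9% in IMQ and 18.3% in IMQ+DMD.

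CXCR4, the receptor of CXCL12, was the sole receptor printed in 10 spots per array. Its normalized intensity was 1062 in Ctrl, 13272 in IMQ and 9425 in IMQ+DMD. Both treated samples stood far above Ctrl. The IMQ array was 12.5-fold above Ctrl (3.64 log2 units, technical SD 0.07), and the IMQ+DMD array was 1.41-fold below IMQ (-0.49, technical SD 0.06). Before normalization, the signals of the 10 spots ran from 1169 to 1361 in Ctrl, 12103 to 13191 in IMQ and 7816 to 8429 in IMQ+DMD. The spots of the 3 arrays did not overlap, but they are repeats within an array and not replicates of a condition. Without normalization, the median probe shifted by -0.49 in IMQ against Ctrl and by 0.04 in IMQ+DMD against IMQ. Lack of overlap therefore speaks only to spot noise. The SD of the 10 spots was 0.06, 0.05 and 0.03 log2 units in that order. The scanner software marked 1 of the spots as an outlier on the Ctrl array and 1 on the IMQ+DMD array, and the raw intensities of the authors for these arrays, 1283 and 8094, equaled the means of the spots without them.

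**Figure D2:**
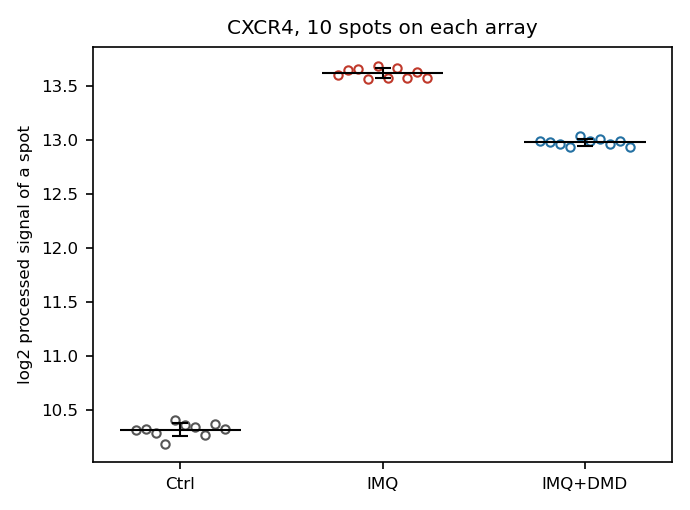
Each circle is 1 of 10 CXCR4 spots, with its log2 processed signal before normalization between arrays on the vertical axis and the array on the horizontal axis; lines are means and bars are the SD over spots. The IMQ+DMD spots lie between the Ctrl and the IMQ spots and overlap neither.

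CXCR5, the follicle-homing receptor of CXCL13, had a normalized intensity of 114 in Ctrl, 583 in IMQ and 331 in IMQ+DMD. The order of the arrays was that of CCR7 and CXCR4, at low brightness. IMQ exceeded Ctrl 5.12-fold (2.36 log2 units, technical SD 0.12). The IMQ+DMD array was 1.76-fold below IMQ (-0.81, technical SD 0.09), the receptor difference nearest to the threshold in that comparison, and 2.91-fold above Ctrl (1.54 log2 units). Differences from Ctrl were smaller without normalization, with spike-in scaling and with normexp. They were then 1.92, 2.06 and 1.84 for IMQ, and 1.15, 1.23 and 1.16 for IMQ+DMD. Without normalization and with spike-in scaling, the median probe also shifted down.

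CX3CR1, the receptor of the membrane-bound chemokine CX3CL1, ran the opposite way. Its normalized intensity was 14123 in Ctrl, 428 in IMQ and 295 in IMQ+DMD. It was bright in untreated macrophages and dim, yet well above background, in both treated samples. The IMQ array was 33.0-fold below Ctrl (-5.04 log2 units, technical SD 0.08), the lowest difference of all 30857 genes compared. The IMQ+DMD array was lower still, 1.45-fold below IMQ (-0.54, technical SD 0.10) and 47.8-fold below Ctrl (-5.58), the lowest of 32631 genes. Genes dim on the treated array entered these rankings with minimum differences, so their falls can be understated.

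CCR1, a receptor of CCL3, CCL5 and other inflammatory chemokines, had a normalized intensity of 7242 in Ctrl, 2980 in IMQ and 3152 in IMQ+DMD. Both treated samples lay close together and below Ctrl. The IMQ array was 2.43-fold below Ctrl (-1.28, technical SD 0.06), the receptor difference that passed the threshold most narrowly. Between IMQ+DMD and IMQ the difference was 0.08 (technical SD 0.06), and it turned negative under 3 of the alternative scalings.

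CCR2, the receptor by which monocytes follow CCL2, could be followed with 1 of its 2 probes. Probe 1 gave 116 in Ctrl, 11.6 in IMQ and 6.27 in IMQ+DMD, and only the Ctrl value was well above background. The other arrays therefore give bounds under the processing used here, by which CCR2 was at least 4.88-fold lower with IMQ and at least 6.87-fold lower with IMQ+DMD than in Ctrl. These bounds depend on how dim signals are treated, since normexp gave -1.21 and -1.26 log2 units in place of -2.29 and -2.78, and the values without a floor were -3.32 and -4.21. No order between IMQ and IMQ+DMD can be read. Probe 2 gave 4.35 in Ctrl, 4.36 in IMQ and 4.26 in IMQ+DMD and was not well above background on any of them. The reading of CCR2 thus rests on a single spot on a single array.

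CXCR3, the receptor of the interferon-induced chemokines CXCL9, CXCL10 and CXCL11, was read differently by its 2 probes. Probe 1 gave 407 in Ctrl, 400 in IMQ and 379 in IMQ+DMD, with an IMQ against Ctrl difference of -0.02 (technical SD 0.10). Probe 2 gave 804 in Ctrl, 274 in IMQ and 210 in IMQ+DMD. By that probe, IMQ was 2.94-fold below Ctrl (-1.55, technical SD 0.12) and IMQ+DMD 3.82-fold below Ctrl. The probes bind different stretches of the gene, shown above, and the direction of CXCR3 is therefore uncertain.

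CCRL2, which binds chemerin without classical G protein signaling, had 3 probes. Probe 1 gave 1232 in Ctrl, 1418 in IMQ and 1409 in IMQ+DMD. Probe 2 gave 128, 148 and 132 in the same order. These probes differed between IMQ and Ctrl by 0.20 log2 units each (technical SD 0.07 and 0.20), and without normalization or with spike-in scaling both differences turned negative. The median probe then shifted by -0.49 and -0.35, and the CCRL2 probes lay 0.30 and 0.14 above it in both settings. Probe 3, listed for a noncoding transcript at the locus, gave 34.4, 24.4 and 24.6, and its IMQ value was not well above background.

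CCR6, the receptor of CCL20, gave 423 in Ctrl, 561 in IMQ and 545 in IMQ+DMD. IMQ differed from Ctrl by 0.41 log2 units (technical SD 0.10). Without normalization between arrays the value became -0.02, but the median probe then shifted by -0.49, and CCR6 lay 0.47 above it. Its probe holds near its end the stretch GGTGGCTCAC, printed in capitals above, which resembles the first bases of Alu repeats. The stretch was searched on both strands of all 58201 probes and was found in 17 (0.0292%). All 17 were well above background on all 3 arrays (100.0%, beside 64.6% of all probes), and their IMQ against Ctrl differences ran from -0.06 to 1.26 with a median of 0.38. Whether repeat-bearing RNA contributes to the CCR6 signal was not tested.

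Between IMQ+DMD and IMQ, 0 of the 8 receptors compared passed 2-fold, beside 2.42% of 30704 genes (1.19% higher and 1.23% lower). CCR7, CXCR5, CXCR4 and CX3CR1 were each lower on the IMQ+DMD array, with differences between -0.81 and -0.49, which exceed the scatter of spots and stay inside 2-fold. At a threshold of 1.5-fold, 2 receptors were past it and lower, CCR7 and CXCR5, beside 5.43% of all genes. The sizes for CCR7 and CXCR4 depended on the scaling by more than the scatter of spots. With 75th percentile scaling, no normalization and spike-in scaling, CCR7 gave -0.80, -0.74 and -0.80. CXCR4 gave -0.70, -0.64 and -0.70 and was then past 1.5-fold as well. The 4 receptors included 3 that were higher and 1 that was lower with IMQ than with Ctrl. CCR1, CCRL2, CXCR3 and CCR6 lay between -0.08 and 0.08 by the probe used for counting. The median of the 8 was -0.28, beside 0.00 over all genes.

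Between IMQ+DMD and Ctrl, CCR7, CXCR4 and CXCR5 were past 2-fold above (3 genes, beside 3.08% of 32631 genes) and CX3CR1, CCR1 and CCR2 below (3 genes, beside 4.91%), 7.99% of all genes in either direction. The comparison shares the Ctrl array with the first and the IMQ+DMD array with the other, so the 3 sets of values are not independent.

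**Figure D3:**
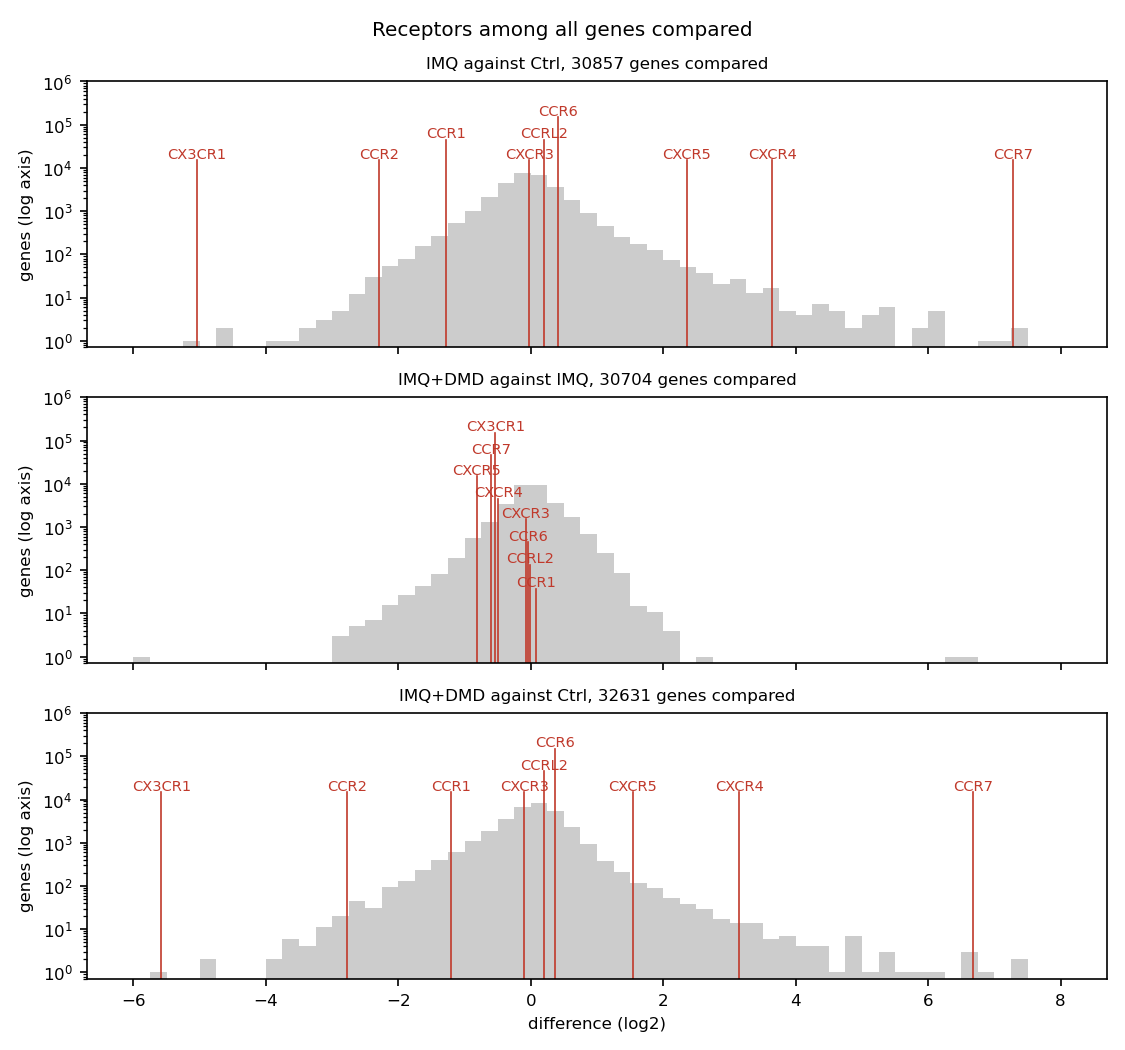
The histograms show the number of genes (vertical, log axis) by their difference in log2 units (horizontal) in each of the 3 comparisons, and red lines mark the receptors (CCR2 as a bound). CCR7 and CX3CR1 lie at opposite ends in both comparisons with Ctrl, and all 8 receptors compared lie within 1 log2 unit of 0 in IMQ+DMD against IMQ.

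The ligands were set beside their receptors, each ligand under 1 receptor although several bind more than 1. Values given for genes from here on are log2 differences unless named as intensities or folds, and beside a median of -0.02 over all genes the list medians between IMQ and Ctrl were 0.09 for the ligands, 0.03 for other chemokine receptors, 0.06 for other chemoattractant receptors, -0.21 for signaling and -0.32 for desensitization. Of 19 ligands, 16 could be compared between IMQ and Ctrl, of which 3 were past 2-fold higher and 2 lower. Of all genes, 4.19% were past 2-fold higher and 3.64% lower in that comparison. CXCL12, the ligand of CXCR4, had an intensity of 345 in Ctrl, 3923 in IMQ and 3883 in IMQ+DMD, so ligand and receptor were both higher with IMQ (CXCL12 by 3.51). Of the other CXCL12 probes, 1 gave 3.86 and the others 0.66 and 0.60. CCL20 had intensities of 1050, 67347 and 42316 in the same order, 64.2-fold higher in IMQ than in Ctrl, while its receptor CCR6 stayed inside 2-fold.

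For the receptors that were lower, the ligands did not share a direction. CCL3 was higher by 4.02 between IMQ and Ctrl, whereas CCR1 was lower, and CX3CL1 differed by -0.35, inside 2-fold. CCL2, the main ligand of CCR2, differed by 0.25. CCL19 and CCL21, the ligands of CCR7, were 1.18-fold and 1.99-fold lower with IMQ, the latter just inside 2-fold, and a second CCL19 probe differed by 0.58 log2 units. CXCL9 (2.92-fold) and CXCL10 (2.14-fold), ligands of CXCR3, were lower with IMQ. CXCL13 and RARRES2, which encodes chemerin, were not well above background on any array. Between IMQ+DMD and IMQ, 1 of 16 ligands passed 2-fold, CCL7 with -1.29, beside 2.42% of all genes.

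**Figure D4:**
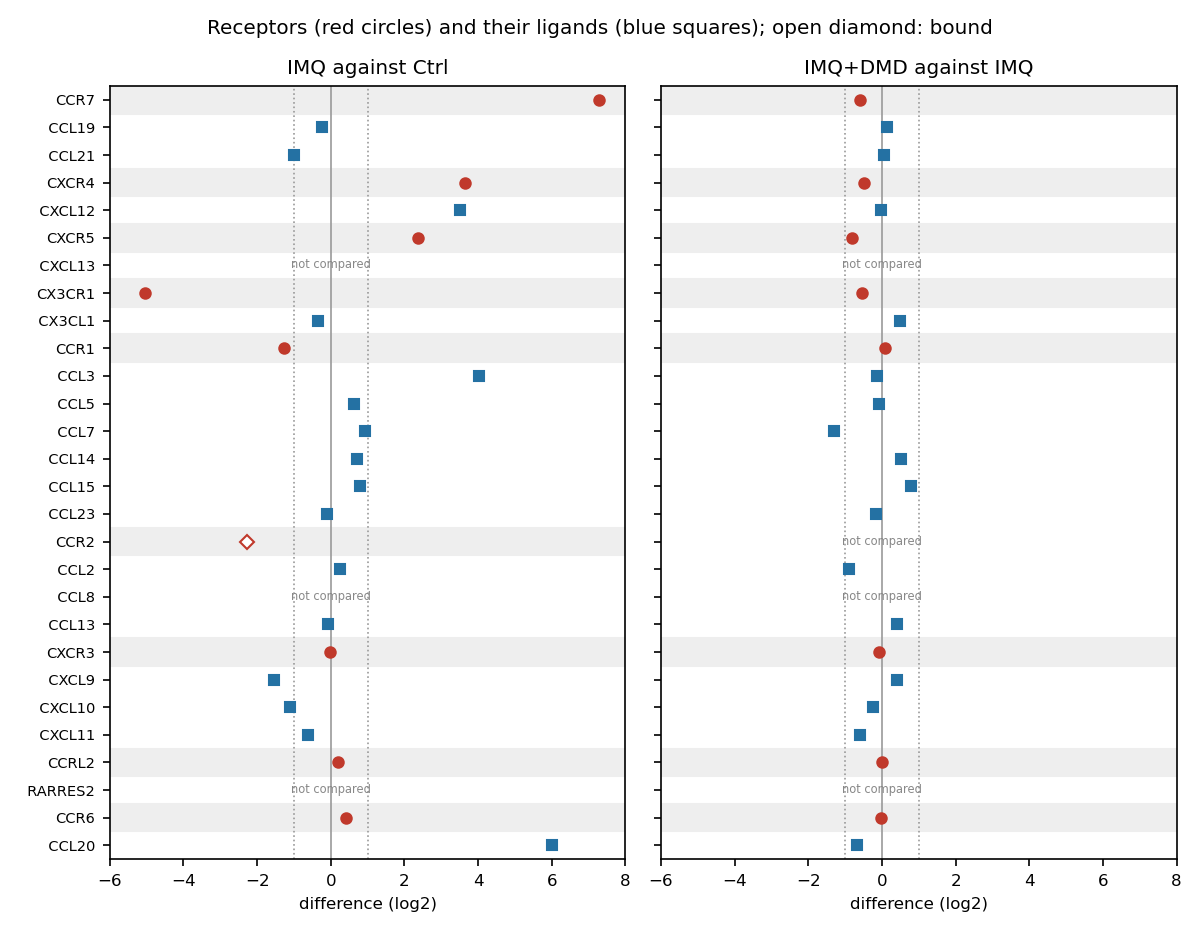
Points show the difference in log2 units (horizontal) of each receptor (red circle, or open diamond for a bound) and, under it, of its ligands (blue squares) for IMQ against Ctrl and IMQ+DMD against IMQ; dotted lines mark 2-fold. CXCL12 and CXCR4 are both past 2-fold higher with IMQ, CCL20 is higher while CCR6 is not, and CCL3 is higher while CCR1 is lower.

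Among 14 further chemokine receptors, 11 were compared between IMQ and Ctrl, of which 1 was past 2-fold higher and 1 lower. The shares over all genes were 4.19% higher and 3.64% lower. ACKR3, a scavenging receptor that shares CXCL12 with CXCR4, had an intensity of 892 in Ctrl, 7973 in IMQ and 4762 in IMQ+DMD. It thus had the same order of arrays as CXCR4, with IMQ above Ctrl by 3.16 and IMQ+DMD differing from IMQ by -0.74. CXCR2, a neutrophil receptor for CXCL1 and its relatives, was lower (-1.92). CCR8 and CXCR6 were not well above background on any array. Of 10 other chemoattractant receptors, 3 were higher, namely C5AR1 (2.04), the oxysterol receptor GPR183 (1.80) and the formyl peptide receptor FPR1 (1.07), and 0 were lower.

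Of 15 genes that carry the receptor signal from inhibitory G proteins to Rac and PI3K, 1 was past 2-fold higher with IMQ, the regulatory subunit PIK3R5 (1.76), and 0 were lower. The shares over all genes were 4.19% higher and 3.64% lower. Of 13 genes that switch receptors off, 2 were higher and 3 lower, and all 5 belong to the RGS family, which speeds the return of G proteins to the inactive state. RGS16 had an intensity of 5814 in Ctrl, 73204 in IMQ and 34272 in IMQ+DMD. It was higher by 3.65 with IMQ and was the sole gene of this list past 2-fold between IMQ+DMD and IMQ (-1.09). RGS1 was 2.14-fold higher, and RGS18 (-1.93), RGS14 (-1.50) and RGS19 (-1.12) were lower with IMQ. The receptor kinases and arrestins stayed inside 2-fold in that comparison, while ARRB1 was lower in IMQ+DMD than in Ctrl (-1.53).

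CCR7 is also a marker of mature dendritic cells. Of 6 other markers of that state, 5 were past 2-fold higher with IMQ than with Ctrl (median of the 6, 1.96). Among all genes, 4.19% were past 2-fold higher and 3.64% lower, and the marker lists were chosen with earlier results of these data known. LAMP3 (3.98), CD86 (2.13), CD83 (2.05), CD40 (1.87) and CD80 (1.25) were higher, while FSCN1 differed by -0.80. Of the 8 macrophage markers, CD163 was lower (-1.22) and 7 were inside 2-fold (median -0.33) between IMQ and Ctrl. Between IMQ+DMD and Ctrl, CD14 (-1.21) and CD163 (-1.13) were past 2-fold lower. Lymphocytes are the usual carriers of CXCR3, CXCR5 and CCR6. Between IMQ and Ctrl, the T cell and B cell lists had 0 of 7 and 0 of 5 genes past 2-fold (medians -0.07 and -0.29), beside 7.83% of all genes. Their summed intensities ran from 787 to 890 and from 3903 to 4818 over the 3 arrays. The B cell sums mostly followed the CD79A probe, which gave 4148 in Ctrl, 3424 in IMQ and 4011 in IMQ+DMD. What part these markers play in the receptor levels was not tested.

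Genes with the pattern most like each receptor were found by the distance between their differences (IMQ against Ctrl and IMQ+DMD against IMQ). Candidates were taken from the 28450 genes well above background on all 3 arrays. The receptors themselves and names that are not RefSeq symbols or synonyms were left out. For CCR7 the nearest were the chemokine genes CXCL3, CXCL1 and CXCL2, at distances of 0.30, 0.61 and 0.64 log2 units. Between IMQ+DMD and IMQ these chemokine genes differed by -0.35, -0.19 and 0.00, beside -0.60 for CCR7. For CXCR4 the nearest were IL7R, TBX2 and EVA1A, at 0.06 to 0.09, and for CXCR5 they were IL1A, TTYH2 and LCA5, at 0.07 to 0.10. A second probe of CXCL1 differed by 4.76 between IMQ and Ctrl, against 6.83 for the first, and one of CXCL2 by 6.05 against 7.48. A second probe of EVA1A differed by 0.58 between IMQ and Ctrl, against 3.62 for the first. Nearest to CX3CR1 were BBOX1 (0.58), CDCA7 (1.55) and VIPR1 (1.61). CX3CR1 lay at the end of the range, where genes are few, so larger distances follow from its place. Genes that went dim on an array were also not candidates. A second probe of CDCA7 differed by -0.49 between IMQ and Ctrl, against -3.51 for the first. CCR1 was nearest to EBP, PRC1 and KIF2C, at 0.01 to 0.04.

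Upstream sequences are shown for CXCR4 and CX3CR1, which differed between IMQ and Ctrl in opposite directions. The 250 bases before the most upstream transcription start of each gene in the RefSeq table (GRCh38.p14, minus strand) lie at chr2:136118150-136118399 for CXCR4 and chr3:39281736-39281985 for CX3CR1. Capitals mark matches to TATAAA and to GAGGAA, the core letters of the macrophage factor PU.1, on either strand.
CXCR4: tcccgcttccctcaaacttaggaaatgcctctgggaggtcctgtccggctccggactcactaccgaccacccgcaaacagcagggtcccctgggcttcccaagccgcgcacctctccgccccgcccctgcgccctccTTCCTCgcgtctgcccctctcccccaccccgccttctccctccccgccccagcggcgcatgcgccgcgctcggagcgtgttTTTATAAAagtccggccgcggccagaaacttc
CX3CR1: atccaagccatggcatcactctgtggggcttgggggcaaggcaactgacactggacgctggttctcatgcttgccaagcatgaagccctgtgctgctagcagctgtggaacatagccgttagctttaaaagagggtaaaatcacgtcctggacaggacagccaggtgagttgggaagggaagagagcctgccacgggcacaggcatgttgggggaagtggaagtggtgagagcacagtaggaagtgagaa

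The RefSeq table held 15 such windows for 8 of the 9 receptors, all but CCR7. Matches on both strands were counted for 4 motifs. GAGGAA was in 8 of the 15 windows and in 23.6% of all 35116 windows, and TATAAA was in 2 of 15, beside 10.7%. The overlapping TATAAA matches in the CXCR4 window shown are on opposite strands. Among windows not shown, CX3CR1 also had a GAGGAA match, and CXCR4 had a window without any match. The windows shown thus do not stand for all windows of either gene. The AP-1 motif TGANTCA was in 1 of 15, that of CCR2, beside 6.57% of all windows. The NF-κB consensus was in 0 of 15, beside 9.96%. A match describes letters only, and windows of the same gene are not independent. In RefSeq order, CCR1, CCR2 and CCRL2 belong to the same receptor cluster on chromosome 3, and their differences between IMQ and Ctrl were -1.28, a bound of -2.29 and 0.20.

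The receptor differences were recomputed under 7 other ways of processing the intensities. The counts of receptors past 2-fold between IMQ and Ctrl remained 3 higher and 3 lower, except that CCR2 dropped out where a probe had to be well above background on both arrays. With the mean over all probes of a gene in place of the brightest probe, CXCR3 was also past 2-fold lower in IMQ+DMD than in Ctrl. Between IMQ+DMD and IMQ, the count of receptors past 2-fold was 0 in all of these settings.

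**Figure D5:**
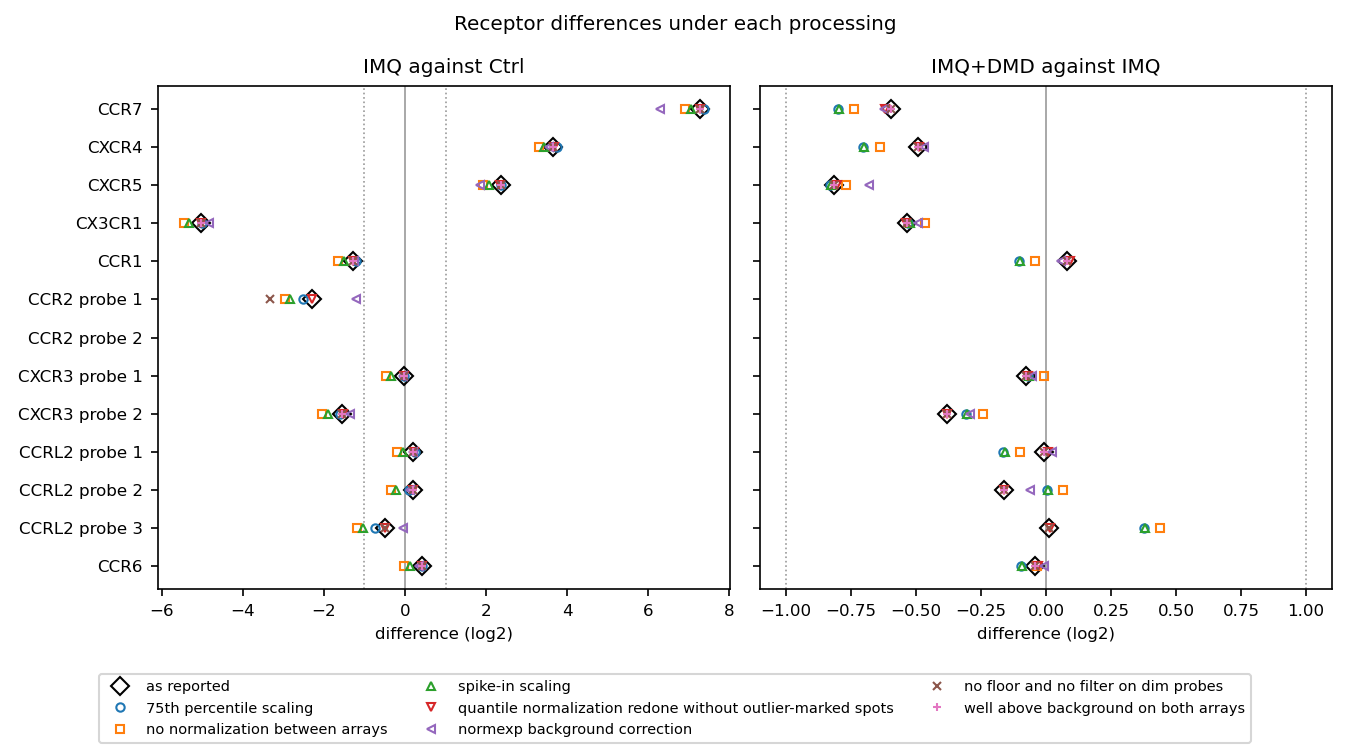
Symbols give the difference in log2 units (horizontal; the panels have different ranges) of each receptor probe under the processing used here (black diamonds) and 7 alternatives, for IMQ against Ctrl and IMQ+DMD against IMQ; dotted lines mark 2-fold. CCR7, CXCR4, CXCR5, CX3CR1, CCR1 and CCR2 probe 1 stay on the same side of 2-fold in every setting that gave a value, while CCRL2 and CCR6 move across 0 with the scaling.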

How the data were processed

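RNA from THP-1 macrophages in 3 conditions was measured on 1 one-color array each. The authors deposited the scanner output (Feature Extraction 10.5.1.1) and a table of raw and quantile-normalized probe intensity. The raw intensity in that table was equal to the scanner values within 0.1% for all 57901 probes with 1 spot. Normalized intensities were converted to log2. Differences were taken where the brighter of both arrays passed the scanner's background mark, and a dim array entered with its own value or, if larger, the smallest value among passing probes. Dim levels thus give bounds. Technical SDs came from 300 probes with 10 spots each. No p-values were computed, since 1 array per condition leaves no way to estimate the spread between cultures. Alternatives comprised 75th percentile scaling, scaling to 10 spike-in probes, no normalization, quantile normalization without outlier-marked spots, normexp (offset 50, limma 3.58.1 in R 4.3.3), other rules for dim probes, the mean of a gene's probes, and thresholds of 1.5-fold and 4-fold. Python 3.11.15 with pandas 2.3.3 and matplotlib 3.10.9 was used. The comparison script was tested on simulated data.

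Members, gene lists and alternatives were chosen with earlier results of these data known. Named genes were the members, list genes past 2-fold between IMQ and Ctrl or between IMQ+DMD and IMQ, and list genes needed for a member's account. Also named were the 3 genes nearest to each member past 2-fold between IMQ and Ctrl that was well above background on all 3 arrays. Of list genes past 2-fold only between IMQ+DMD and Ctrl, values were given for ARRB1 and CD14 alone. CD68 and LYZ of the macrophage list, with no probe of that name, were not analysed here.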

Additional observations from a re-analysis of the deposited data

How the results depend on the processing

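No paired analysis was possible because each condition had 1 array, and for the same reason no array could be left out. Of 240 recomputed differences of receptor probes, 222 kept their direction. Settings that changed only the rule for dim probes reused the same normalized values, so nearly all of their differences could not change. Of the 240, 63 differed from the reported value by at least the technical SD. A further 11 changed sign where the reported value was at least as large as that SD. Against Ctrl, differences turned negative for CCRL2 probe 1 with IMQ (-0.19 without normalization between arrays, -0.053 with spike-in scaling) and with IMQ+DMD (-0.29 and -0.21), for CCRL2 probe 2 with IMQ (-0.35 and -0.22) and with IMQ+DMD (-0.29 and -0.21) and for CCR6 without normalization (-0.02 with IMQ, -0.055 with IMQ+DMD). CCR1 in IMQ+DMD against IMQ was -0.10 with 75th percentile scaling, -0.041 without normalization and -0.10 with spike-in scaling. The other changes of sign were in IMQ+DMD against IMQ, for CCRL2 probe 2 with these scalings (0.0020 to 0.066) and for CCRL2 probe 1 with quantile normalization redone (0.0082) and normexp (0.024). Values moved by over 1.5 times for CCR7 and CCR2 with normexp, for CCR2 without a floor, and without normalization for CCR2 (-2.97) and CCRL2 probe 3 (-1.18) in IMQ against Ctrl. Without normalization and with spike-in scaling, the median probe shifted by -0.49 and -0.35 in IMQ against Ctrl, and by -0.33 and -0.25 in IMQ+DMD against Ctrl. Relative to it, CCRL2 probe 1 was 0.30 and CCR6 0.47 above in IMQ against Ctrl under both. The cause of these shifts was not tested.

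Over all probes, 3205 passed 2-fold in IMQ against Ctrl (55.3% higher), 982 in IMQ+DMD against IMQ (45.5% higher) and 3496 in IMQ+DMD against Ctrl (38.6% higher). These became 7400 (9.9% higher) and 1917 (87.8% higher) in the first and second comparison without normalization, 5434 (16.4%) and 1600 (83.1%) with spike-in scaling, and 3443 (44.1%) and 1581 (82.7%) with 75th percentile scaling. In the third, 674 of 5185 were higher without normalization and 787 of 4587 with spike-in scaling, in place of 1350 of 3496. In the 3 comparisons, normexp gave 1443, 60 and 1629, no floor 7604, 4720 and 6887, a 1.5-fold threshold 8943, 4992 and 9479, and a 4-fold threshold 503, 49 and 549, while 592 remained in the second when both arrays had to be well above background. At 1.5-fold with the normalized values of the authors, 2 receptors passed in IMQ+DMD against IMQ, in place of 0.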
